A study of Mus musculus with 2 samples.

Results

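The genes described here are all microRNA genes named Mir6900 to Mir7094 in the GENCODE M21 annotation of the mouse, with a letter or copy suffix allowed, 197 of 2202 annotated genes. They carry 194 of the 195 numbers in that range. The rule uses only their names. Small RNA was sequenced from 2 libraries of tissue labelled as a layer of hippocampus, the brain region of memory formation, from wild-type female mice of strain B6NCrl. Both are controls under the labels, where they are numbered as biological replicates 1 and 2. The labels give no age and do not say which layer, cite different adapter trimming documents for the libraries, and list a single donor record for both, so the spread between libraries may be technical. No second condition exists, and every comparison is among genes or between these libraries.

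Most microRNAs are cut from a longer transcript by the nuclear enzyme Drosha and then trimmed by Dicer to a duplex of a 5p and a 3p arm, one of which guides an Argonaute protein. A mirtron takes another route, in which the splicing machinery releases a short intron that folds into a hairpin and passes to Dicer without Drosha. In a tailed mirtron only one end of the hairpin is set by splicing, and the remaining intron is trimmed away. Bases 2 to 8 of a mature arm form its seed, which pairs with target messenger RNAs.

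The hairpins of Mir7080, Mir6944 and Mir7044 are shown because they carry the feature shared by nearly all of these genes, an end that coincides with the end of a host intron. Sequences are from RefSeq on GRCm38.p6, where 176 of the 197 genes had a hairpin, all 176 at the GENCODE position. Capitals mark the first and last 2 bases of the intron where the hairpin reaches them, and Mir7044 reaches only the last.
Mir7080 hairpin: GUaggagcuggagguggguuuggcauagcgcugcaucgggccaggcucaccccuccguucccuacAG
Mir6944 hairpin: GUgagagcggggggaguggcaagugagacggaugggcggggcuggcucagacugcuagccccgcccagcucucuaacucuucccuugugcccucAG
Mir7044 hairpin: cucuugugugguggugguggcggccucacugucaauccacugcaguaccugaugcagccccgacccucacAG

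The mature arms of 6 of the 8 genes with the highest levels follow, with the seed in capitals. The counts are per gene and do not tell the 5p from the 3p arm.
mmu-miR-7080-5p: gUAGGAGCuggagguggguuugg
mmu-miR-7080-3p: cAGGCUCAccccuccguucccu
mmu-miR-7044-5p: gUGUGGUGgugguggcggc
mmu-miR-7044-3p: aUGCAGCCccgacccucacag
mmu-miR-6944-5p: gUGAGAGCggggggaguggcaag
mmu-miR-6944-3p: uAACUCUUcccuugugcccucag
mmu-miR-7019-5p: aUCUGGGAggggcugucaggagu
mmu-miR-7019-3p: uCACCUUGgccgccucucugcag
mmu-miR-7052-5p: uGUGGGAAgguggaggccuuu
mmu-miR-7052-3p: gCUCUGCCcccuccuucccag
mmu-miR-7046-5p: uGUAGGGUgaggcugggagccagg
mmu-miR-7046-3p: uGAACCACccaucccccuacag
These 12 arms have 12 different seeds. The 5p arms are rich in G and the 3p arms in C and U, and 5 of these 6 3p arms end in AG.

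The same base composition held over the whole set. In 173 5p arms 44.3% of bases were G, against 29.3% in 523 5p arms of other mouse microRNA genes in RefSeq. In 172 distinct 3p arms 71.7% of bases were C or U, against 54.0% in 533 3p arms of other genes. Of the 3p arms 135 (78.5%) ended in AG, the last bases of nearly every intron, against 61 (11.4%) of the other 3p arms.

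The hairpins lay at the 3′ ends of introns rather than in short introns alone. In 183 of the 197 (92.9%) the last base of the hairpin was exactly the last base of an annotated intron on the same strand, against 16 of 337 genes numbered Mir1000 to Mir6899, 7 of 115 numbered Mir7095 or higher and 1 of 514 numbered below 1000. Host genes were protein-coding for 195 of the 197, and the other 2, Mir7094-1 and Mir7094-2, were assigned to immunoglobulin variable segments. Taking the smallest host intron, 15 hairpins spanned a whole intron of 67 to 137 bases, 14 of them exactly at both ends, which is the geometry of a conventional mirtron. Another 167 ended at the 3′ end of an intron with a median of 481 bases before them, the geometry of a 5′-tailed mirtron. A further 4 began at the 5′ end of an intron, 2 lay inside one, and 9 lay in an annotated exon with no enclosing intron. The host introns had a median length of 453.5 bases, and 66 of 188 were at most 200 bases long, so that short introns were a minority. For these reasons the set is called below by its gene numbers. In 32 of the genes within introns, Mir7080, Mir7044 and Mir7019 among them, the hairpin also overlaps an annotated exon, 1 of them by running past its own intron, and the part of intron-retaining RNA in their counts was not tested.

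More of these genes had reads than of the other named bands, at low levels. Replicate 1 held 6713867 reads on the sense strand of microRNA genes, 42.5% of its reads, and replicate 2 held 5901107, or 41.3%. Another 43.9% and 45.9% mapped to several places and were given to no gene. Such reads can be missing from hairpins that share 18 or more bases with a hairpin elsewhere. These were 41.1% of the genes numbered below 1000 and 2.03% of the 197, and the part of this in the shares below was not tested. Of the 197 genes, 142 (72.1%) had at least 1 sense count in both libraries, 20 in 1 library and 35 in neither. The share with a count in both was 59.9% for genes numbered below 1000, 38.3% for Mir1000 to Mir6899, 41.7% for Mir7095 and above, and 30.6% over all 2202 genes. Against genes below 1000 the order turned for higher counts. A mean of at least 10 counts was reached by 36.0% of the 197 and by 53.3% of the genes below 1000. For Mir1000 to Mir6899 this share was 22.8%, for Mir7095 and above 16.5%, and over all genes 21.2%. A mean of 100 or more counts was reached by 7 of the 197 (3.55%), against 226 of 514 (44.0%) of the genes below 1000. The share was 9.20% for Mir1000 to Mir6899, 4.35% for Mir7095 and above, and 12.9% over all genes. Among genes with a mean of at least 10 counts the median level was 3.58 CPM, against 203 CPM for those below 1000. That median was 10.3 CPM for Mir1000 to Mir6899, 5.04 CPM for Mir7095 and above, and 37.7 CPM over all genes. CPM (counts per 1000000) scales the sense counts of a gene to all sense counts on microRNA genes. It was not divided by hairpin length, and the order of the 8 leading genes was the same per base of hairpin. The counts give neither the ends nor the length of a read. Whether each read is a whole mature arm or another piece of the host intron was not tested, for any of the genes.

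**Figure D1:**
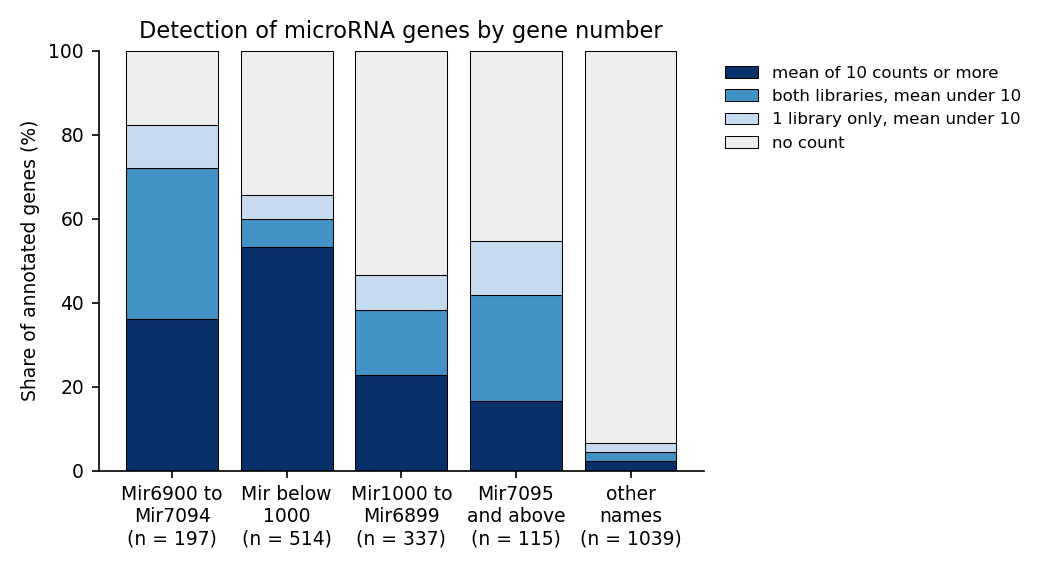
Share of annotated microRNA genes (vertical axis, %) by detection class, for 5 bands of gene names with the number of genes under each bar. Of Mir6900 to Mir7094, 36.0% had a mean of 10 or more sense counts and 17.8% had no count, against 53.3% and 34.4% of genes numbered below 1000.

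Few of these counts involve copies or the opposite strand. Of the 197 hairpins, 4 (2.03%), Mir6970, Mir7065, Mir7094-1 and Mir7094-2, share 18 or more bases with a hairpin elsewhere. This held for 51.5% of all genes, 41.1% of those below 1000, 13.1% of Mir1000 to Mir6899 and 10.4% of Mir7095 and above. Reads in such a shared stretch map to several places. None of the 197 has a microRNA gene on the opposite strand. Their antisense counts were 2 in each library, 2 and 1 at Mir7071 and 0 and 1 at Mir6936.

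Summed over all 197 genes, the sense counts were 5413 in replicate 1 and 4640 in replicate 2. These are 0.0806% (exact 95% interval 0.0785 to 0.0828) and 0.0786% (0.0764 to 0.0809) of the counts, with intervals that cover counting error only. The counts leave out reads that map to several places, 43.9% of reads in replicate 1 and 45.9% in replicate 2. The part of this in the shares was not tested. The summed level was 796 ± 14.1 CPM (SD, n = 2), 806 CPM in replicate 1 and 786 CPM in replicate 2. With genes that share 18 or more bases left out of the total and the sum, it was 1212 CPM. As a share of the total counts the sum was therefore nearly equal in the libraries. Scaling by the trimmed mean of M values (TMM), used below, has factors of 1.06 in replicate 1 and 0.946 in replicate 2. Under TMM the sum was higher in replicate 2. The sum came from few genes, since the 4 leading genes gave 53.0% of it in replicate 1 and 48.5% in replicate 2, and the 25 leading genes 77.0% and 76.7%.

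Mir7080 had the highest level. It spans a whole intron of 67 bases of Cpne7, which encodes a copine, a calcium-dependent membrane-binding protein, on chromosome 8 (mm10, 123130106 to 123130172, plus strand). Its counts were 1669 in replicate 1 and 1104 in replicate 2, a level of 218 ± 43.5 CPM (SD, n = 2) and rank 158 among all 2202 genes. It alone made 30.8% of the summed counts in replicate 1 and 23.8% in replicate 2. Its hairpin begins with GU and ends with AG, as shown above, and its 5p arm starts at the first base of the intron.

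Mir6944 was the other whole-intron hairpin at a high level. It fills an intron of 96 bases of Dbn1, which encodes drebrin, an actin-binding protein of dendritic spines, on chromosome 13 (55477681 to 55477776, minus strand). Its counts were 254 and 222, a level of 37.7 ± 0.150 CPM (SD, n = 2), so that the libraries were almost equal in CPM. Its log2 ratio of replicate 2 over replicate 1 was -0.008 under total counts and 0.15 under TMM. The remaining whole-intron genes, named after their values were seen, were far lower. Mir7070 in Fbxw9 had 20 and 31 counts, Mir6958 in Dennd6b 22 and 21, and Mir7068 in Cherp 27 and 11. The other 10 had at most 9 counts in a library, and 5 of them had none, Mir6923, Mir7018, Mir7060, Mir7088 and Mir7091. As a class the 15 whole-intron genes held 37.1% and 30.2% of the summed counts, nearly all from Mir7080 and Mir6944, while only 7 of 15 had a count in both libraries.

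Among hairpins at intron 3′ ends, Mir7044 led. It closes an intron of 705 bases of Rasgef1a, an exchange factor for small GTPases, on chromosome 6 (118085192 to 118085263, plus strand). It had 530 and 610 counts, a level of 91.2 ± 17.3 CPM (SD, n = 2). The levels of Mir7080, Mir7044 and Mir6944 kept this order in both libraries, with gaps between them larger than the SD of any of the 3.

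Below these, 4 genes lay close together. Mir7019, in Pink1, a kinase that marks damaged mitochondria, had 148 and 107 counts and 20.1 ± 2.77 CPM (SD, n = 2), on chromosome 4 (138316132 to 138316200, minus strand). Mir7052, in the deubiquitinase gene Josd2 on chromosome 7 (44470347 to 44470411, plus strand), had 106 and 99 counts and 16.3 ± 0.699 CPM. Mir7046, in Rabac1, which encodes a prenylated Rab acceptor, had 98 and 103 counts and 16.0 ± 2.02 CPM. It lies on chromosome 7 (24970010 to 24970075, minus strand). Mir6953, in Grina, whose product is associated with NMDA receptors, had 84 and 112 counts and 15.7 ± 4.57 CPM, on chromosome 15 (76248191 to 76248258, plus strand). The differences among Mir7052, Mir7046 and Mir6953 were within the SD of Mir6953, and their order was not the same in both libraries. All 4 end at the 3′ end of their intron, and for Mir7046 and Mir6953 only 11 and 13 bases of intron precede the hairpin.

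Of the other genes among the 25 leading ones, several lie in genes of neurons and their matrix. Mir6982, in Camk2a, the alpha subunit of the synaptic kinase CaMKII, had 88 and 86 counts. Mir7066, in Ncan, which encodes the brain proteoglycan neurocan, had 70 and 83. Mir7000, in Mapk8ip1, a scaffold of JNK signalling, had 51 and 64. Mir7055, in Slc17a7, the vesicular glutamate transporter VGLUT1, had 16 and 48. Host transcripts were not measured in these libraries, so the levels of host and hairpin were not compared.

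Others lie in genes of organelles, lipids and RNA. Mir6928, in Atp6v0a1 of the vesicular proton pump, had 83 and 45 counts, and Mir6900, in Ndufa10 of mitochondrial complex I, had 59 and 64. Mir7004, in the lipid flippase gene Atp9a, had 54 in each library, and Mir7059, in the lysosomal gene Cln3, had 43 and 53. Mir6994, in the mRNA decay gene Patl1, had 67 and 45 counts, and Mir6971, in the RNA helicase gene Skiv2l, had 50 and 43. These genes lay between 7.37 CPM for Mir6971 and 9.99 CPM for Mir6928, a range in which neighbours did not differ beyond their spread.

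The rest of the 25 were Mir6954 in Mroh1 with 65 and 47 counts, Mir7031 in the adaptor gene Sh2b3 with 40 and 52, and Mir7013 in the lipid kinase gene Pi4kb with 49 and 42. Mir6959 in Sbf1 had 45 and 37, Mir6945 in Pdlim7 36 and 42, Mir6985 in the cofilin phosphatase gene Ssh3 31 and 40, and Mir6926 in Sgsm2 17 and 45. Below them came 46 genes with a mean of at least 10 counts, from 1.57 to 4.88 CPM, with 7 to 45 counts in replicate 1 and 6 to 31 in replicate 2. A further 71 genes had a count in both libraries and a lower mean, at most 11 counts in replicate 1 and 10 in replicate 2.

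**Figure D2:**
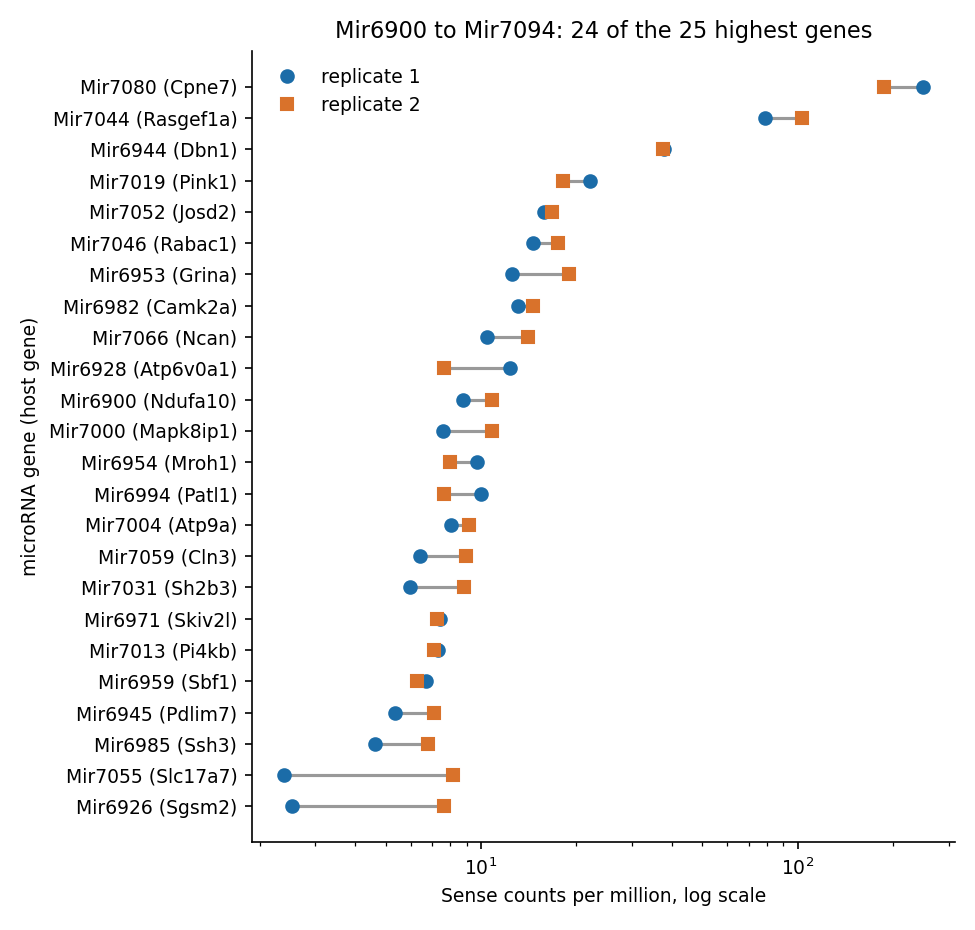
Level of 24 of the 25 leading genes of Mir6900 to Mir7094 in each library (horizontal axis, CPM of sense counts, log scale; circle, replicate 1; square, replicate 2; bar, the gap between them), with the host gene in brackets. Mir7080 lies at 249 and 187 CPM, and Mir7055 and Mir6926 show the widest gaps, 2.38 to 8.13 and 2.53 to 7.63 CPM.

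Low counts limited what could be detected. Of the 20 genes with a count in 1 library only, 7 had it in replicate 1, with at most 8 counts (Mir7021), and 13 in replicate 2, with at most 4. For 33 of the 35 genes with no count, 0 allows a level of up to 0.447 CPM in replicate 1 and 0.508 CPM in replicate 2. This assumes that their reads map to a single place, since shared sequence was searched only among microRNA hairpins. A count of 0 sets no limit for Mir7094-1 and Mir7094-2, which share 55 bases with each other. Hosts of genes with no count, picked after the values were seen and not counted by class, include Il10ra, the interleukin 10 receptor (Mir7086), the complement genes C3 and Cfb (Mir6978 and Mir6972), the mast cell protease gene Mcpt8 (Mir6949), and the pancreatic genes Clps and Ctrb1 (Mir6969 and Mir7076). They also include Rpl13 of the ribosome (Mir7079), Ctnnb1, which encodes beta-catenin (Mir7090), and the splicing regulator gene Ptbp1 (Mir6910). Hosts used by immune cells also hold genes with counts, such as Mir6983 in Csf1r with 4 and 2, Mir7023 in Pik3cd with 8 and 9 and Mir7062 in Adam8 with 7 and 14. The genes with no count were not detectable at this depth, which does not show that they were absent.

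Detection was not tied to the shortest introns. Of 66 genes in introns of at most 200 bases, 46 (69.7%) had a count in both libraries. The same held for 51 of 64 (79.7%) in longer introns of up to 1000 bases and for 39 of 58 (67.2%) in introns above 1000 bases. Of the 9 exonic genes 6 had a count in both libraries, and none reached a mean of 10. The hairpins of the 142 genes with a count in both libraries had a median GC content of 58.0% and a median predicted folding energy of -27.1 kcal/mol, against 54.0% and -24.9 kcal/mol for the 35 with none. The quartiles of GC content overlapped, from 53.8 to 63.0% in the detected genes and from 49.2 to 59.4% in the others, and no test was made.

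**Figure D3:**
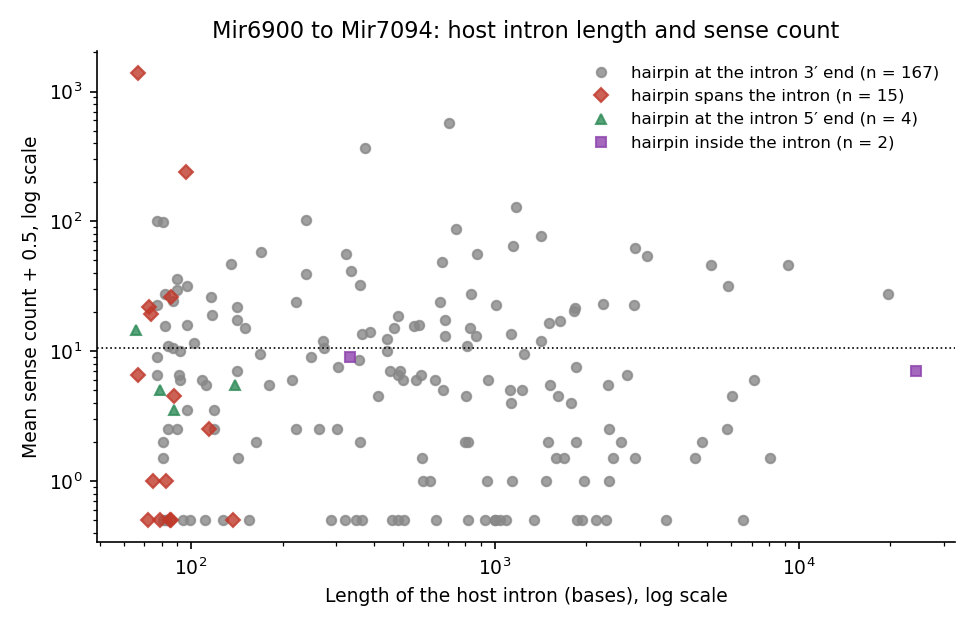
Mean sense count with 0.5 added (vertical axis, log scale) against the length of the smallest host intron (horizontal axis, bases, log scale) for the 188 genes of Mir6900 to Mir7094 within an intron, by the place of the hairpin. The dotted line marks a mean of 10 counts, and genes without counts lie along the bottom in short and long introns alike, while Mir7080 and Mir6944 stand highest among the introns of at most 100 bases.

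The 2 libraries were then compared gene by gene. A Fisher exact test of each gene's counts against all other counts covers counting error only and compares these libraries, not animals or conditions. Of 71 genes with a mean of at least 10 counts, 8 (11.3%) passed after Benjamini-Hochberg adjustment over all 466 such microRNA genes, of which 57.5% passed. The 71 have few counts, with a median standard error of the log2 ratio of 0.43 against 0.14 over all tested genes. Among all 138 tested genes with a mean under 50 counts 15.9% passed. These include 55 of the Mir6900 to Mir7094 genes, of which 4 (7.27%) passed. For most of the set a difference of less than its counting error was not detectable at this depth. Larger differences could also fail to pass. Mir7000 had a log2 ratio of 0.51 under total counts, with a counting SE of 0.27 (exact test, adjusted p = 0.0986).

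Of the 8, 5 were higher in replicate 2 and 3 lower, where 21.9% of all tested genes were higher and 35.6% lower. Ratios are log2 of replicate 2 over replicate 1 with 0.5 counts added, scaled by the trimmed mean of M values (TMM). Their signs give the directions above, also over all tested genes, where the sign of some differs under total counts. The exact test compares raw counts with the library totals and does not use TMM. Each adjusted p therefore goes with the ratio under total counts, not with the TMM ratio beside it. The widest were those of Mir7055 of Slc17a7, 16 and 48 counts, at 1.90 (counting SE 0.41, adjusted p = 1.65e-05), and Mir6926 of Sgsm2, 17 and 45 counts, at 1.73 (SE 0.41, adjusted p = 0.000129). Mir7036, in Srrt, which encodes a partner of the nuclear cap-binding complex, had 8 and 21 counts and a ratio of 1.69 (SE 0.58, adjusted p = 0.0152). Each of these 3 was at least 2-fold higher in replicate 2.

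The remaining 5 differed by less than 2-fold under TMM, and Mir6990 by more under total counts, at -1.11. Mir6953 of Grina was higher in replicate 2, at 0.76 (SE 0.21, adjusted p = 0.00800), as was Mir7044 of Rasgef1a, at 0.55 (SE 0.09, adjusted p = 1.33e-05). Lower in replicate 2 were Mir6990, in Esrra, the gene of an orphan nuclear receptor, with 45 and 18 counts at -0.95 (SE 0.40, adjusted p = 0.00702), and Mir6928 of Atp6v0a1 at -0.53 (SE 0.27, adjusted p = 0.0188). Mir7080 was lower at -0.25 (SE 0.06), a small change that its count made measurable. Under total counts its ratio was -0.41 (exact test, adjusted p = 5.56e-13). All 8 kept their sign under TMM, total counts and DESeq2 size factors. With n = 2 and a single library on each side, none of these differences has a replicate check.

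Over all 71 genes the median ratio was 0.23 under TMM and 0.22 under DESeq2 size factors, against -0.02 and -0.03 over all 466 tested genes. Ratios above 0 numbered 45 of 71 (63.4%) under TMM, against 49.4% of all tested genes, and 36 of 71 (50.7%) under total counts, against 34.5%. A scaling shifts every ratio by the same amount, so under total counts the medians were 0.07 for the 71 genes and -0.18 for all. Across the 71 genes the levels of the libraries, as log2(CPM + 1), had a Pearson r of 0.926 and a Spearman rho of 0.777, and an r of 0.903 without Mir7080. These describe genes within 2 libraries, and the genes are not independent replicates.

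**Figure D4:**
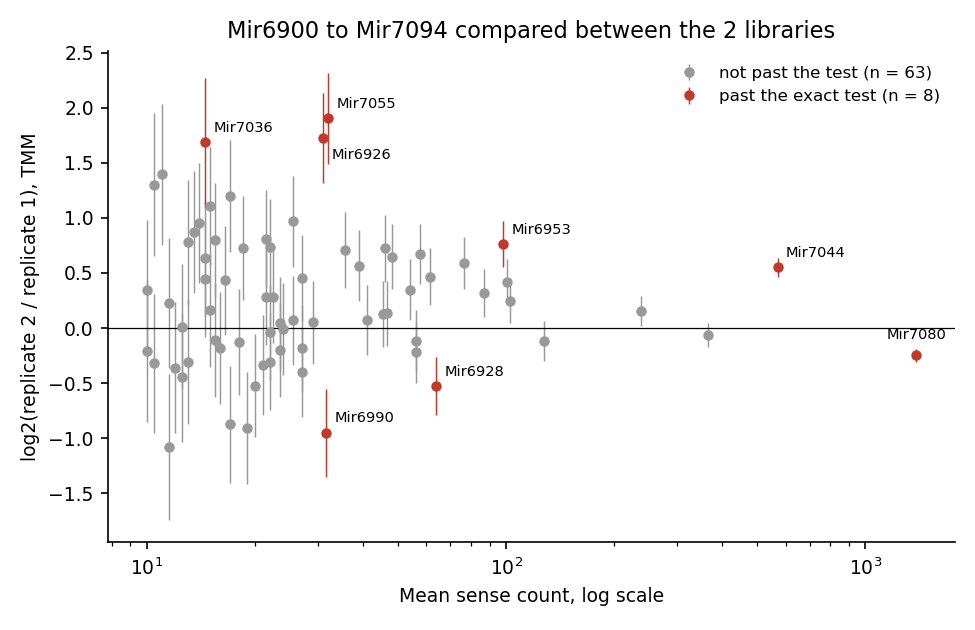
Log2 ratio of replicate 2 over replicate 1 under TMM (vertical axis; bars, counting SE) against the mean sense count (horizontal axis, log scale) for the 71 genes of Mir6900 to Mir7094 with a mean of at least 10 counts. The 8 named genes passed the exact test, which does not use TMM, and the bars widen toward low counts. The other 63 genes did not pass.

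A pair of gene lists gives a scale for these levels. Of 4 mirtrons known from the literature, all had counts in both libraries, with Mir1981 at 400 ± 102 CPM (SD, n = 2), Mir1224 at 282 ± 29.6, Mir877 at 238 ± 8.80 and Mir702 at 227 ± 11.6. Mir7080, at 218 ± 43.5 CPM, lay within its own SD of Mir877 and Mir702, and the next gene of the set, Mir7044, lay below all 4. In this annotation Mir702 lies in an exon of Plod3 and does not end at an intron end, while the other 3 span a whole intron. These 4 genes together had 1146 CPM, more than the 796 CPM of all 197 genes. The hippocampal neuron list of 11 genes summed to 27315 ± 746 CPM, led by Mir132 at 13806 CPM and Mir128-1 at 6248 CPM, and 10 of the 11 had counts in both libraries. The exception was Mir124a-2, with no count, and its copies had few, 8 and 5 for Mir124a-1 and 7 and 1 for Mir124a-3. Reads that map to more than one copy were given to none, so these counts are lower bounds. The CPM values are not, since the total they are scaled to leaves out such reads as well.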

How the data were processed

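The authors deposited raw read counts per microRNA gene for each library, with 3 count columns and 4 read classes, on mm10 with GENCODE M21, per the deposited notes. Aligner and counter: not given in the sources used here. The size range was below 30, per the labels. Columns were identified from their values as unstranded, sense and antisense, and library sizes leave out the read classes.

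All 2202 identifiers matched GENCODE M21. Introns came from all its transcripts, and for each hairpin the smallest host intron containing it was used, with ends called equal within 5 bases for classes and exactly for the count of 3′ ends. Hairpins were folded with RNAfold 2.7.2. Fisher exact tests (scipy 1.17.1) used genes with a mean of at least 10 counts and a threshold of 0.05. Scaling used edgeR 4.0.16 and DESeq2 1.42.0, on all genes. The test was run on simulated counts that vary by counting error only, which does not check it under further spread between libraries. The limit for a gene without counts is 3 counts.

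The genes and lists were chosen with earlier results of these data known. Named are the 25 genes with the highest mean CPM, the 8 highest with positions, and those past the exact test. Of the 25, 1 is not reported here. Genes named outside this rule are marked. Alternatives tried were unstranded counts, other count minimums, other scalings, genes with shared sequence left out, and each replicate left out.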

Additional observations from a re-analysis of the deposited data

How the results depend on the processing

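The number of genes with a count in both libraries, 142, was 142 without strand, 141 without genes that share 18 or more bases, and 109 at a minimum of 3 counts in both, but 63 at a minimum of 10. Counted in a single library it was 149 to 155. The summed level of 796 CPM was 786 to 806 with either library left out and 797 under TMM as the mean of the libraries. It was 851 CPM without strand and 1212 CPM without genes that share 18 or more bases, since by construction both settings take counts of other genes out of the total. The 8 genes that differed between libraries numbered 8 without strand, 9 with no filter on low counts and 10 without genes that share bases. At a minimum mean of 50 counts, with fewer genes tested, 5 passed, 4 of the 8 and 1 other, and 3 of the 8 also differed by 2-fold. Antisense counts were 2 in either library. The count of hairpins ending at an intron end, 183, was 184 within 5 bases and 182 with GENCODE basic transcripts, settings chosen after seeing the data. For 26 named genes, all 93 values under settings that can move the exact test, which does not use the scaling, stayed on the same side of the threshold. Another gene, not reported, passed under 2 settings only. No paired analysis was possible because the labels give one group, and the comparison of 2 libraries cannot be made with one left out. Depth limits most of the set, since 126 of 197 genes had a mean under 10 counts.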

Other observations

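Seeds were seldom shared. The 346 mature arms that RefSeq lists for 181 of the 197 genes have 317 different seeds, and 25 seeds occur in 2 or more of these genes. Among the 65 genes with a mean of at least 10 counts and listed arms, 128 arms have 125 seeds, and 19 of those seeds also occur in a microRNA gene outside the set. One shared seed joins the 5p arms of Mir7055 and Mir6926, the pair with the widest ratios between the libraries, and is shown for that reason.
mmu-miR-7055-5p: uCAGUGGGuuaucugaguugg
mmu-miR-6926-5p: uCAGUGGGgugagggaugguga
The pair lies on different chromosomes, 7 and 11, in Slc17a7 and Sgsm2, and the arms differ from the first base after the seed. The seed also occurs in miR-194-2-3p of another gene. The counts were 16 and 48 for Mir7055 and 17 and 45 for Mir6926. This was noticed after the values were seen, and the counts do not show which arm was read. Among genes with a mean of at least 10 counts, 3 seeds were each shared by 2 genes. The other pairs, named for comparison, were Mir7019 with Mir6907 and Mir7032 with Mir6990. Their log2 ratios under TMM were -0.12 and -0.20, and -0.21 and -0.95, and of these only Mir6990 passed the exact test. Whether a shared seed goes with a difference between libraries was not tested.

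Of 192 host genes, 5 hold 2 of the Mir6900 to Mir7094 genes each. In Skiv2l, Mir6971 had 50 and 43 counts and Mir6970 had 9 and 3. In Ankrd52, Mir6915 had 24 and 10 and Mir6914 had 3 and 5. In Cmip, Mir7077 had 1 and 7 counts and Mir7078 had 1 and 3, while in Srebf1 Mir6922 had 5 and 6 and Mir6921 had 3 and 3. In Arap3, Mir6980 had 1 and 2 and Mir6981 had 0 and 4. Mir6970 shares 49 bases with a hairpin elsewhere, and the part of this in its low count was not tested.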
